A study of Mus musculus with 20 samples.

Results

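Compound 178 is a small molecule known here by its code name only, and it was set against methanol in C2C12 cells, a line of mouse myoblasts. The comparison used 6 of the 20 arrays of the series, chosen by their labels: 3 arrays of compound 178, 1 each at 6.25, 12.5 and 25 µM, and 3 arrays of methanol. Methanol is taken as the vehicle because the treatment protocol names it beside the compounds. All cells were of 1 line, were kept below confluence and were treated in serum-containing medium, and for the length of treatment the sources used here give no value. The other arrays used beside these were 2 of untreated cells, 6 of recombinant BMP4 (2 each at 10, 100 and 300 ng/ml) and 3 of compound 181 at the same 3 doses. The protocol does not list 12.5 µM or 100 ng/ml, which come from the sample titles. In its title the series describes small molecules that activate BMP signalling, so the question for compound 178 is which genes, BMP-responsive ones among them, stood apart from methanol and whether they followed the dose.

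Bone morphogenetic proteins bind paired type I and type II receptor kinases, which phosphorylate receptor SMADs. These enter the nucleus with SMAD4 and switch on direct targets such as the Id genes, whose products hold back myogenic transcription factors, and the inhibitory SMADs, which damp the signal. C2C12 myoblasts left to themselves express the myogenic programme. BMP4 is known to divert them from muscle towards an osteoblast-like state, which makes the line a common assay for agents acting on this pathway.

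The arrays carry title numbers that form 2 runs, 10 to 17 and 18 to 29. The 3 arrays of compound 178 are numbers 24, 25 and 26 in rising order of dose, so dose and order cannot be told apart. Methanol replicate 1 lies in the first run and replicates 2 and 3 in the second. Over all genes methanol replicates 2 and 3 differed by a median of 0.104 on the log2 scale and correlated at r = 0.991, while replicate 1 differed from them by 0.158 and 0.169. The 3 arrays of compound 178 differed from each other by medians of 0.110 to 0.124. They correlated with the methanol arrays of their own run at 0.989 to 0.991 and with methanol replicate 1 at 0.984 to 0.986. Values against all 3 methanol arrays are therefore followed, where it matters, by values against the 2 of the same run. The myoblast markers Myod1, Myf5, Des, Cdh15 and Itga7 were bright in methanol, at 9.26 to 11.7. Of the defining markers of other cell types, those of endothelium, macrophages and epithelium lay below 6 in methanol, and among those of neurons Stmn2 (10.8) and Rbfox3 (6.13) lay above it.

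No gene passed the test for compound 178 against methanol. Of 22180 genes, limma called 0% (p adjusted by Benjamini-Hochberg under 0.05) for the mean over the 3 doses, and the smallest adjusted p was 0.9999. An unadjusted p under 0.05 was reached by 310 genes with a higher mean (1.4%) and 237 with a lower one (1.07%). The largest differences were +0.73 and -0.76 on the log2 scale, no gene reached 1, and 75 genes reached 0.5 in either direction. For 22117 genes (99.7%) the 95% interval of the difference lay within 1 log2 unit of 0. At the single doses 0 genes were called as well, with 468, 603 and 440 genes at an unadjusted p under 0.05 for 6.25, 12.5 and 25 µM. The slope on log2 dose also gave 0 calls, with 359 genes (1.62%) at an unadjusted p under 0.05.

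BMP4 against untreated cells, in the same fit, gave 932 genes higher (4.2%) and 1021 lower (4.6%). These 2 comparisons share no arrays. Of the BMP4 arrays at 300 ng/ml, that of the first run was labelled by another method, and a labelling term of the fit takes it up. BMP4 at that dose thus rests on the array of the second run. For 1934 of the 1953 genes called for BMP4, the interval of compound 178 left out the BMP4 difference. It did so for all 522 of those whose BMP4 difference was at least 1. These genes were chosen by their BMP4 difference in the same fit, and the error of that difference is not counted. Values near 0 for compound 178 are enough to give such counts. The spread behind every interval comes from groups with several arrays: methanol, untreated cells and BMP4 at 10 and 100 ng/ml. Where the BMP4 pairs of a gene disagreed, its interval for compound 178 is wide as well. Apart from methanol replicates 2 and 3 all such pairs lie across the 2 runs. Fitted on the 12 arrays of the second run alone, where the spread rests on 1 residual degree of freedom from those 2 methanol arrays, 64 genes passed (0.289%). When the 3 doses were given 1 common mean in that run, 0 genes passed (890 at an unadjusted p under 0.05).

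**Figure D1:**
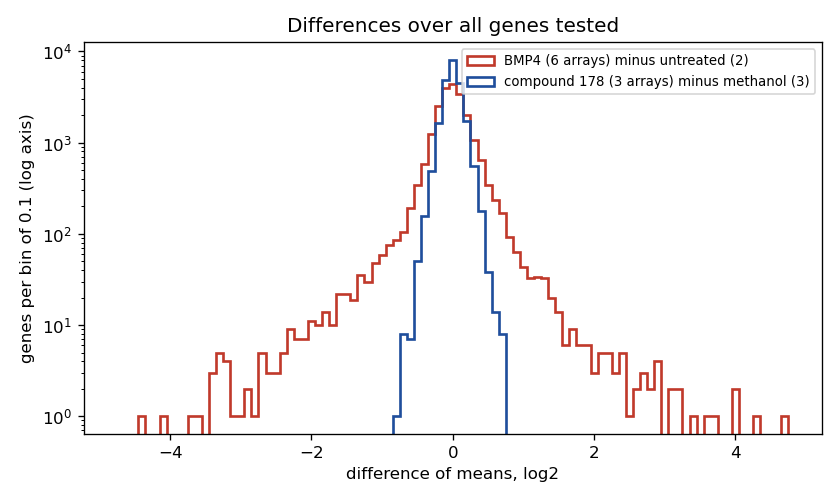
Number of genes (log axis) in bins of 0.1 of the log2 difference, over 22180 genes. Blue is the mean of 3 arrays of compound 178 minus 3 of methanol, and red the fitted BMP4 mean over doses minus 2 arrays of untreated cells. The legend counts 6 BMP4 arrays, but at 300 ng/ml the fitted value rests on the array of the second run. The blue curve ends at -0.76 and +0.73, while the red one runs to -4.43 and +4.74.

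The direct BMP targets of the Id family stood within or just below the methanol arrays. Id1, an inhibitor of myogenic basic helix-loop-helix factors, read 7.33, 7.20 and 7.37 in methanol and 6.93, 7.17 and 7.17 at 6.25, 12.5 and 25 µM. All 3 arrays of the compound lay below the lowest methanol array, by a mean of -0.21 ± 0.38 (SE, 95% interval -1.05 to 0.63). Id2 was 9.38, 9.72 and 9.82 in methanol and 9.62, 9.56 and 9.79 with the compound, a difference of 0.02 that became -0.11 against the methanol arrays of the same run. Id3 was 8.73, 8.79 and 8.91 in methanol and 8.69, 8.70 and 8.80 with the compound, with the groups overlapping and a difference of -0.08 ± 0.28. None of these Id genes stood higher at any dose than the highest methanol array. The corresponding differences for BMP4 were 1.03, 0.60 and 0.98, and for these 3 genes they missed the adjusted threshold too (adjusted p = 0.16, 0.26 and 0.059, limma). At 10 ng/ml BMP4, Id1 read 9.04 in the first run and 7.04 in the second, Id2 10.27 and 8.95, and Id3 10.08 and 8.82. Untreated cells read 7.02 and 7.29, 9.09 and 9.58, and 8.90 and 8.84. In the run of compound 178 this BMP4 dose thus lay below untreated cells. At 300 ng/ml in that run the 3 genes read 8.24, 10.30 and 10.23.

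The inhibitory SMADs did not stand apart either. Smad6, an antagonist of BMP receptor signalling, was 5.98, 5.81 and 5.94 in methanol and 5.89, 5.91 and 6.29 with compound 178. The array at 25 µM was the highest of the 6 and the other doses lay among the methanol arrays, so the mean difference was 0.12 ± 0.32, against 2.24 for BMP4 (adjusted p = 0.0012, limma). Smad7, which antagonises TGF-beta and BMP receptors, was 7.02, 6.89 and 6.98 in methanol and 6.77, 6.74 and 7.04 with the compound. Its difference of -0.11 (95% interval -0.73 to 0.51) leaves out the 1.12 of BMP4.

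The osteoblast genes in the readout stayed dim. Sp7, the osteoblast transcription factor osterix, was 4.40, 4.45 and 4.43 in methanol and 4.34, 4.50 and 4.17 with compound 178. Alpl, the tissue-nonspecific alkaline phosphatase used as an enzymatic readout of BMP activity in these cells, was 5.10, 5.18 and 4.68 in methanol and 4.92, 5.08 and 4.84 with the compound. The differences were -0.09 (95% interval -0.92 to 0.74) for Sp7 and -0.04 (95% interval -0.96 to 0.88) for Alpl, where BMP4 gave 3.97 and 3.18. The value of Alpl turned to 0.01 within the run.

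Myogenic factors were bright in every array of both groups. Myog, the factor of terminal muscle differentiation, was 11.22, 10.85 and 10.69 in methanol and 11.02, 10.99 and 11.16 with compound 178. The difference was 0.13 ± 0.27 over all methanol arrays and 0.29 within the run, where each dose lay above both methanol arrays, and BMP4 gave -2.88. Myod1, the factor of myoblast identity, was 10.69, 10.46 and 10.48 in methanol and 10.44, 10.44 and 10.43 with the compound, a difference of -0.11 ± 0.15 against -0.67 for BMP4.

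**Figure D2:**
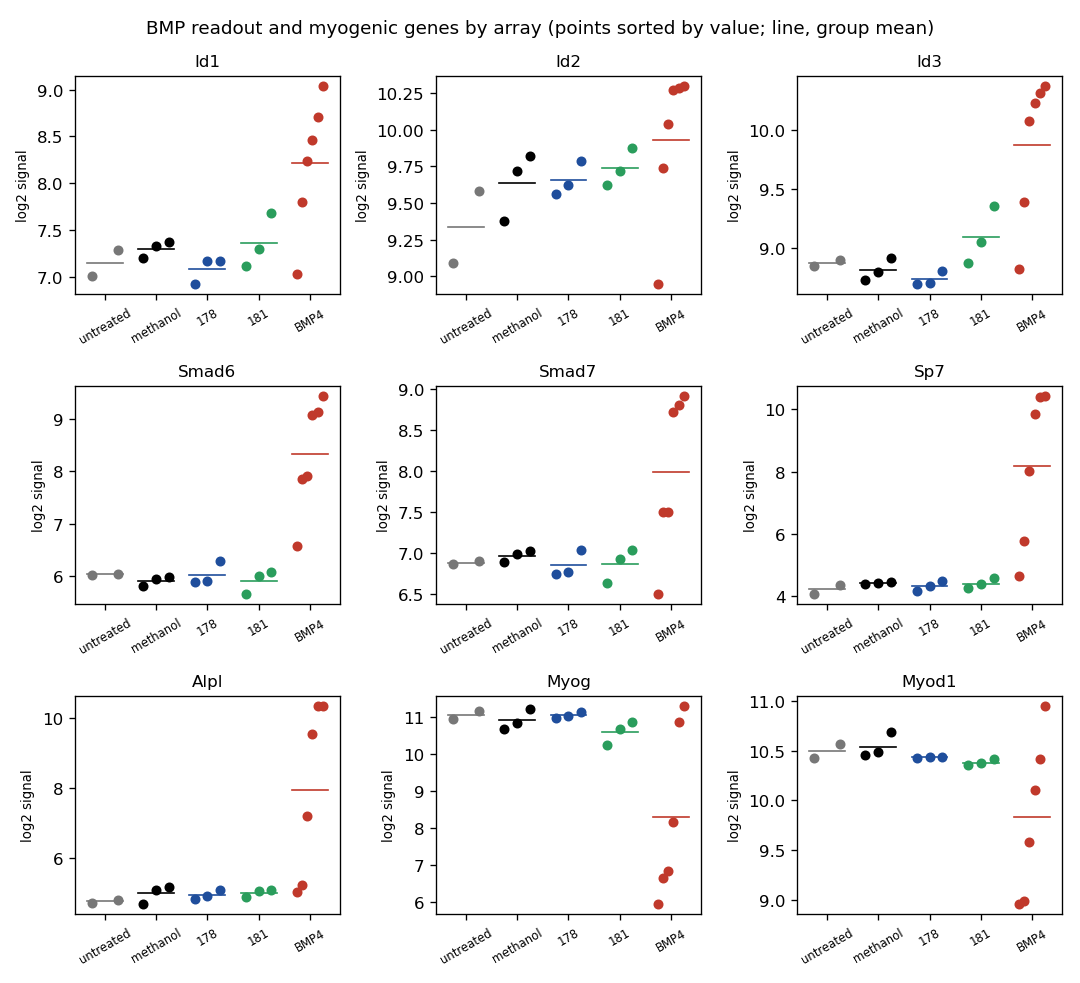
Log2 signal of 9 genes in each array of untreated cells, methanol, compound 178, compound 181 and BMP4 (all doses of an agent together, points sorted by value, line at the group mean). For Sp7 the arrays of compound 178 lie between 4.17 and 4.50 beside methanol at 4.40 to 4.45, and for Myog between 10.99 and 11.16.

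The wider lists of the pathway had medians near 0 for compound 178. Of 20 measured BMP and SMAD targets, 0 were called for compound 178 and the median difference was 0.0016, against -0.0024 over all genes tested. For BMP4, 9 of these 20 rose and 1 fell, with a median of 0.67. Of 23 BMP receptors, ligands, antagonists and SMADs, 0 were called and the median was -0.022. Bmp6 and Bmp4, ligand genes of the family, had the largest differences among them, 0.24 ± 0.13 and -0.23 ± 0.20. Of the 23 genes, 0 lay above all methanol arrays and 2 below (Smad3 and Rgmb), beside 4.67% and 4.92% of all genes. Smad3 also fell in order of dose, and over all genes 0.852% were ordered and lower. Among 17 osteoblast genes the median was -0.0025, where BMP4 gave 1.12 with 10 rising and 1 falling. Bglap, which encodes the bone matrix protein osteocalcin, was 5.11, 4.82 and 5.06 in methanol and 5.44, 5.29 and 5.20 with compound 178, above every methanol array but declining with dose. Its difference of 0.31 ± 0.15 (adjusted p = 0.9999, limma) compares with 1.46 for BMP4.

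Muscle, matrix and the other mesenchymal lists had medians near 0 as well. The median of 36 contractile genes was 0.0071 for compound 178 (0.078 within the run), and 0 of them were called. Beside it stood -0.37 for the mean of compound 181 and -2.17 for BMP4, under which 31 fell and 1 rose. Myh1 and Myh7, a fast and a slow myosin heavy chain, had the largest differences, -0.27 ± 0.16 and -0.22 ± 0.15. The median of 20 myogenic regulators was -0.029. Of 30 matrix genes 0 were called, with a median of 0.013 against 0.62 and 18 rising for BMP4. Postn, the matricellular protein periostin, was 8.00, 7.79 and 7.27 in methanol and 7.78, 7.85 and 8.32 with compound 178, so that the highest dose alone stood above all methanol arrays. Medians were 0.030 for 13 chondrocyte genes and 0.0046 for 14 adipocyte genes.

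Some genes followed the dose in order while staying outside the methanol range, and these are the members of the dose pattern asked for. All 3 arrays of compound 178 lay above all 3 methanol arrays for 1035 genes (4.67%) and below them for 1091 (4.92%). With strictly rising values over the 3 doses in addition, 174 genes (0.784%) remained on the higher side. With strictly falling values, 189 (0.852%) remained on the lower side. Of these 73 and 90 reached a log2 signal of 6. The order was part of the choice, so the values below describe the chosen genes and carry no test of their own. Counted against the 2 methanol arrays of the same run, 393 and 339 genes qualified.

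Among the 12 genes with the largest differences on the higher side, matricellular, secreted and immediate early genes were found. Ccn2, a matricellular protein induced by TGF-beta and mechanical signals, was 8.97, 8.96 and 9.13 in methanol and 9.23, 9.37 and 9.59 at the rising doses. The highest dose thus stood 0.57 above the methanol mean, and the mean over doses was 1.30-fold methanol (95% interval 1.03 to 1.64). Its second probe set gave a difference of 0.21, and BMP4 gave 1.47. Sfrp2, a secreted modulator of Wnt signalling, was 6.10, 6.03 and 5.97 in methanol and 6.22, 6.31 and 6.45 with the compound. The steps of Sfrp2 were small beside the 4.74 of BMP4, and its second probe set gave -0.06. Angptl4, a secreted inhibitor of lipoprotein lipase, was 7.58, 7.82 and 7.88 in methanol and 7.98, 8.04 and 8.16 with the compound, a difference of 0.30 where BMP4 gave -1.77.

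Fos and Egr1, transcription factors of the immediate early response, were both in this group. Fos was 6.29, 6.33 and 6.44 in methanol and 6.52, 6.56 and 6.73 with compound 178, a difference of 0.25 ± 0.11. Egr1 was 9.14, 9.59 and 9.55 in methanol and 9.64, 9.73 and 9.75 with the compound. Methanol replicate 1 was the lowest of the 6 arrays, and the difference was 0.28 over all methanol arrays and 0.14 within the run. Of the 29 measured immediate early genes, 4 lay above all methanol arrays (Fos, Egr1, Egr3 and Btg2) and 2 below (Dusp1 and Dusp4). Over all genes 4.67% lay above and 4.92% below. The median of the 29 genes was 7e-05.

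The other higher genes had differences of like size. Zfp651, a zinc finger gene, was 7.21, 7.10 and 7.06 in methanol and 7.39, 7.49 and 7.55 with the compound, a difference of 0.35 ± 0.12. Cyp26b1, an enzyme that degrades retinoic acid, was 5.49, 5.61 and 5.64 in methanol and 5.81, 5.91 and 6.06 with the compound. Rassf2, a RAS-association domain protein, was 5.64, 5.76 and 5.68 in methanol and 5.93, 5.97 and 6.06 with the compound, and untreated cells read 6.09 and 5.90, on either side of the compound. Leng1, Gm15753, Gm26705 and Prss48 completed the 12, with differences of 0.24 to 0.33. Untreated cells read 6.51 and 6.09 for Gm15753 and 6.36 and 6.10 for Prss48, on either side of the compound means of 6.25 and 6.14. None of the 12 genes exceeded the methanol mean by more than 0.38 on average.

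On the lower side the clearest steps were those of Oaz1. This gene encodes antizyme, which directs ornithine decarboxylase to the proteasome and so restrains polyamine synthesis. It was 8.24, 8.34 and 8.31 in methanol and 8.13, 7.84 and 7.64 at the rising doses of compound 178. The difference was -0.43 ± 0.13 (unadjusted p = 0.0060, adjusted p = 0.9999, limma), or 1.34-fold below methanol, and -0.46 within the run. At the same doses compound 181 read 8.34, 8.39 and 8.40, among or above the methanol arrays. Of the 2 arrays of untreated cells, the one of the first run, at 7.65, lay as low as compound 178 at 25 µM, and the one of the second run, at 8.15, lay just above all 3 arrays of the compound. Renbp, an N-acylglucosamine epimerase that binds renin, had a larger difference, -0.46, with methanol at 8.25, 7.73 and 7.63 and the compound at 7.59, 7.37 and 7.25. Its methanol arrays disagreed by run, and within the run the difference was -0.27.

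Txnip, an inhibitor of thioredoxin that responds to glucose, was 8.68, 8.49 and 8.43 in methanol and 8.29, 8.18 and 8.15 with compound 178. The groups did not overlap, the difference was -0.33 ± 0.11 (1.25-fold lower), and compound 181 stood at 8.66, 8.81 and 8.77. Untreated cells read 8.43 and 8.28, so the lower untreated array lay between the compound's first 2 doses. Atp6v0e2, a subunit of the vacuolar proton pump, was 6.95, 6.91 and 6.84 in methanol and 6.81, 6.51 and 6.44 with the compound. Hoxa7, a homeobox gene, was 7.25, 7.16 and 7.15 in methanol and 6.91, 6.83 and 6.83 with the compound, with most of the difference already present at 6.25 µM.

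Mitochondrial genes were among the remaining lower ones. Sirt3, the mitochondrial deacetylase, was 6.45, 6.10 and 6.13 in methanol and 5.99, 5.89 and 5.81 with the compound, a difference of -0.33 that was -0.22 within the run. Ndufa1, a subunit of respiratory complex I, was 6.91, 6.91 and 6.81 in methanol and 6.68, 6.63 and 6.55 with the compound. The list of 25 oxidative phosphorylation genes as a whole had a median of -0.037 and 0 calls. D730003I15Rik, Zfp959, Serpinb9b, Enpp5 and Tmem14c completed the lower 12, with differences of -0.25 to -0.37. For Enpp5 untreated cells read 7.24 and 7.27, beside means of 7.25 with the compound and 7.52 in methanol.

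Against the methanol arrays of the same run the difference moved by more than 1.5 times in 5 of these 24 genes (Egr1, Renbp, Sirt3, Serpinb9b and Tmem14c), while sign and order are fixed by the choice of genes. BMP4 changed 7 of the 24 at an adjusted p under 0.05 (limma), and for 5 of those it went in the direction seen with compound 178. Over all genes BMP4 changed 8.81%, and 1122 of those 1953 had the sign of their difference with compound 178. That share takes in dim genes, whereas the 24 were required to reach a log2 signal of 6. In methanol 43.0% of all genes had a mean of at least 6, and the BMP4 share among such genes was not counted. Just outside the group of 12 stood Kank3 (0.24) and Wnt4 (0.22) on the higher side and Rdh5 and Pet100 (both -0.24) on the lower. A mean difference of at least 0.5 was found for 4 ordered genes on the higher side and 5 on the lower, all of them under a log2 signal of 6. The 4 were Gm7609, Olfr211, Olfr1053 and Gm4166, and the 5 were Olfr191, Csn3, Gzmd, Olfr1249 and Gm7367.

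**Figure D3:**
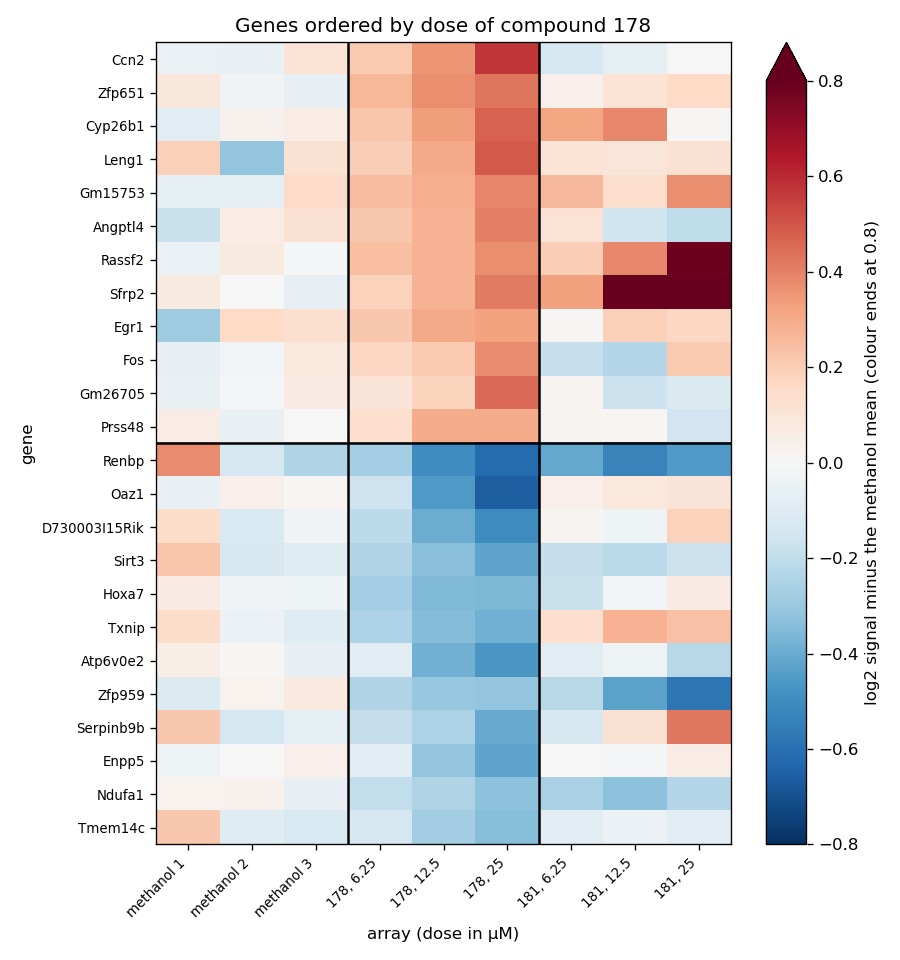
Log2 signal minus the methanol mean (colour, which ends at 0.8) for the 12 higher and 12 lower genes that followed the dose of compound 178, in 3 methanol arrays and 3 arrays each of compounds 178 and 181. The middle block deepens from left to right because the genes were chosen for that order, and in the right block Sfrp2 at 25 µM of compound 181, at 7.89, passes the end of the colour scale.

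The slope on log2 dose picked out a different kind of gene, one that began on one side of methanol and ended on the other. Snord37, a small nucleolar RNA, was 5.52, 5.80 and 5.88 in methanol and 4.66, 5.50 and 6.05 at the rising doses, a slope of 0.69 ± 0.16 per doubling (adjusted p = 1, limma). Naf1, an assembly factor of box H/ACA ribonucleoproteins, was 6.53, 6.45 and 6.46 in methanol and 5.94, 6.43 and 6.82 with the compound. The lower doses lay below every methanol array, 12.5 µM by a small step, and the highest dose lay above all of them. Gm4983, Napepld and Cspp1 gave slopes of 0.58, 0.34 and 0.28. On the falling side Gchfr, the regulator of GTP cyclohydrolase, was 9.10, 8.81 and 9.02 in methanol and 9.08, 8.92 and 8.49 with the compound. Hmgb3, a chromatin protein, was 8.15, 8.11 and 8.26 in methanol and 8.50, 8.16 and 8.04 with the compound. Gm4340, Olfr484 and 9330159M07Rik had slopes of -0.45, -0.39 and -0.28.

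Other genes had small unadjusted p-values for the mean without following the dose. Herc6, the main ligase for ISG15 in mice, was 6.39, 6.34 and 6.28 in methanol and 5.77, 6.06 and 5.80 with compound 178. The groups did not overlap, with a difference of -0.46 ± 0.12 (unadjusted p = 0.0020, limma). Tfb2m, a mitochondrial transcription factor, was 7.47, 7.59 and 7.45 in methanol and 7.11, 7.15 and 7.19 with the compound, a level step of -0.36 ± 0.10. Untreated cells read 7.14 and 7.26 for Tfb2m, nearer to the compound than to methanol. The 2 further probe sets of Tfb2m gave -0.13 and 0.01. Actg2, the smooth muscle gamma-actin, was 9.52, 9.55 and 9.65 in methanol and 9.85, 9.81 and 9.95 with the compound, a difference of 0.29 ± 0.10. Zkscan17, Vmn1r159 and Mir667 lay 0.27, 0.39 and 0.52 higher on average. Untreated cells read 7.53 and 7.48 for Zkscan17 and 6.64 and 6.45 for Vmn1r159, above the methanol means of 7.24 and 6.21. For Mir667 they read 5.64 and 5.83, beside a methanol mean of 5.62.

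Over 35 gene lists the medians for compound 178 lay between -0.090 and 0.042, and those at 25 µM between -0.10 and 0.098. Of 742 entries 686 were measured, which are 668 genes, and 0 of them were called in the limma fit, 10 had an unadjusted p under 0.05 and 14 were ordered by dose and apart from methanol. These counts stand beside 547 and 363 among all 22180 genes. The quartiles over all genes tested were -0.076 and 0.073.

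**Figure D4:**
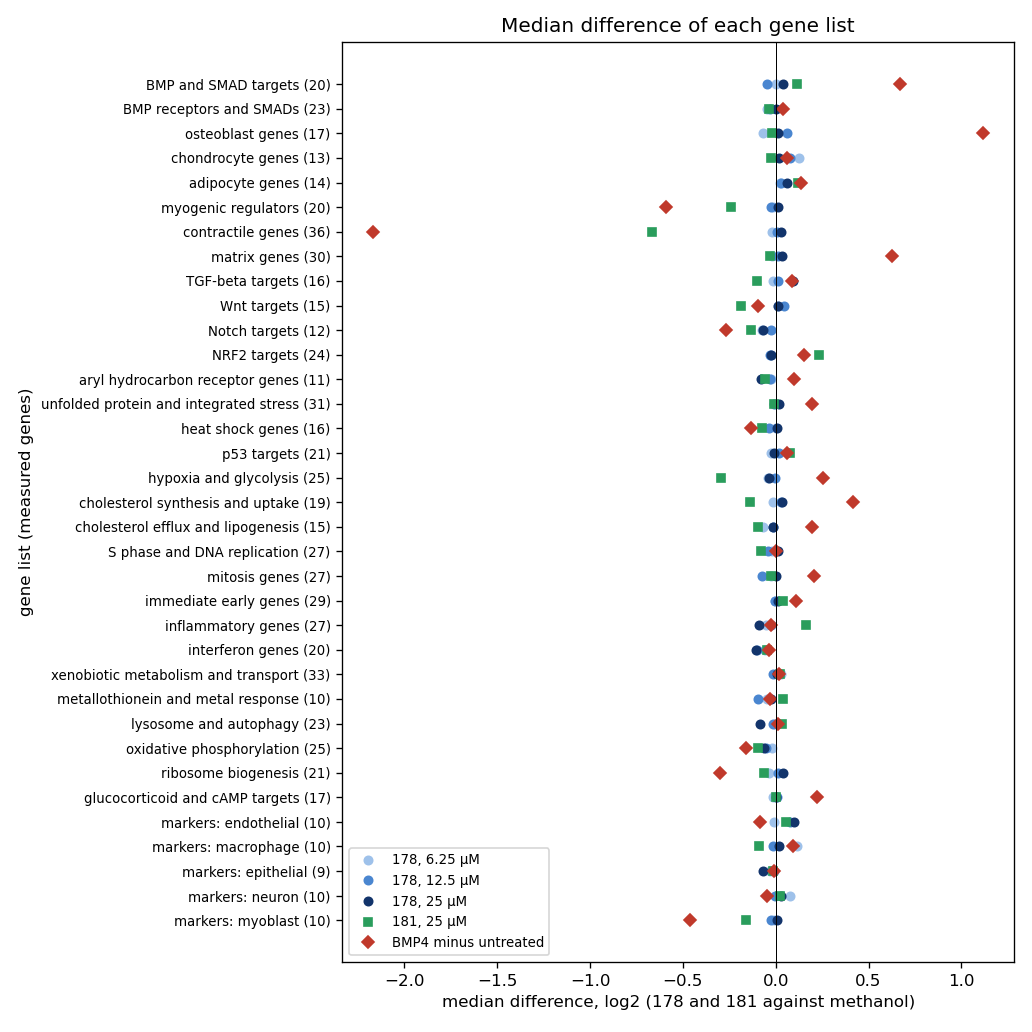
Median log2 difference of each gene list (number of measured genes in brackets) at 3 doses of compound 178 and at 25 µM of compound 181, each against methanol, and for BMP4 against untreated cells. The points of compound 178 stay between -0.10 and 0.13, while those of BMP4 run from -2.17 to 1.12.

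Signalling lists other than BMP had small medians, with single members apart from methanol. Among 16 TGF-beta targets the median was 0.017, or 0.095 at 25 µM, and Ccn2 and Tagln, a smooth muscle actin-binding protein, were ordered and higher (0.38 and 0.15). Among 15 Wnt targets the median was 0.027, with Sfrp2 higher and Nkd1, an inhibitor of Wnt signalling, lower at -0.35 ± 0.19. Among 12 Notch targets Hes1, a transcriptional repressor, was 9.29, 9.25 and 9.35 in methanol and 9.11, 8.97 and 9.03 with compound 178. All 3 doses lay below methanol, with a difference of -0.26 ± 0.15. Among 17 glucocorticoid and cAMP targets the median was -0.011, and Pde4b, a cAMP phosphodiesterase, had a difference of -0.22 ± 0.11.

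Stress and xenobiotic lists held members on both sides of methanol. Medians were -0.018 for 24 NRF2 targets, 0.0067 for 31 integrated stress and unfolded protein response genes, -0.030 for 16 heat shock genes and -0.0058 for 21 p53 targets. In these lists Hmox1 (heme oxygenase), Hspa1b (an inducible HSP70) and Btg2 (an antiproliferative p53 target) lay above all methanol arrays, by 0.17, 0.20 and 0.23. Taldo1 (an enzyme of the pentose phosphate pathway), Chordc1 (a cochaperone of HSP90) and Xbp1 (a transcription factor of the unfolded protein response) lay below all of them, by -0.19, -0.18 and -0.031. Of the 11 genes of the aryl hydrocarbon receptor list 0 lay apart from methanol on either side, and Cyp1a1, the receptor's classical target, was 4.85, 4.44 and 4.56 in methanol and 4.85, 4.79 and 4.88 with the compound. Among 33 genes of xenobiotic metabolism and transport, 4 lay above methanol (Cyp7b1, Cyp26b1, Sult4a1 and Aldh1a3) and 0 below, beside 4.67% and 4.92% of all genes. Of those 4, Cyp26b1 alone reached a log2 signal of 6 with the compound, at 25 µM.

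Inflammatory and interferon genes had members below methanol and none above, where over all genes 4.92% lay below and 4.67% above. Among 27 inflammatory genes 0 lay above all methanol arrays and 5 below (Ccl20, Cxcl2, Cxcl12, Tnfaip3 and Birc3), with a median of -0.048. Among 20 interferon genes the split was 0 and 3 (Mx1, Ifih1 and Bst2), with a median of -0.090 that became -0.0050 within the run. Ifih1, a sensor of double-stranded RNA, was 5.77, 5.97 and 6.09 in methanol and 5.56, 5.56 and 5.62 with compound 178. Bst2, the tethering factor tetherin, was 5.00, 4.43 and 4.44 in methanol and 4.40, 4.18 and 4.13 with the compound, so methanol replicate 1 was the highest of the 6 arrays and the difference was -0.39 with it and -0.20 within the run. The median signals of both lists in methanol were below 6, at 5.57 and 5.37.

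Growth and metabolic lists had medians within 0.1 of 0. Medians were -0.027 for 27 genes of S phase and DNA replication and -0.014 for 27 mitosis genes (-0.11 within the run), with 0 members of either list apart from methanol. Cholesterol synthesis and uptake had a median of 0.023 over 19 genes, and lipogenesis and cholesterol efflux -0.034 over 15. In that second list Elovl6, a fatty acid elongase, was 10.13, 9.92 and 9.93 in methanol and 9.68, 9.64 and 9.85 with the compound, a difference of -0.27 ± 0.17. Hypoxia and glycolysis had a median of -0.052 over 25 genes, with Vegfa, Egln1 and Car9 above methanol by 0.058, 0.046 and 0.21, and a second probe set of Car9 at -0.22. Of 23 lysosome and autophagy genes 4 lay below methanol and 0 above, where over all genes 4.92% lay below and 4.67% above. The median of that list was -0.029, or -0.0083 within the run. In it Ctsb, a lysosomal protease, was 11.23, 11.15 and 11.16 in methanol and 11.14, 11.06 and 11.01 with the compound. Ribosome biogenesis and the metal response had medians of 0.014 over 21 genes and -0.048 over 10.

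Markers of endothelium, macrophages and epithelium were dim, while 5 of 10 neuronal markers reached a log2 signal of 6. The mean level of 10 endothelial markers was 4.14 to 4.31 in methanol and 4.27 to 4.32 with compound 178, of 10 macrophage markers 4.40 to 4.52 and 4.43 to 4.57, and of 9 epithelial markers 4.84 to 4.88 and 4.82 to 4.86. The 10 neuronal markers lay at 6.56 to 6.66 and 6.63 to 6.72. Single dim markers had among the larger differences seen: Elavl3, an RNA-binding protein of neurons, was 5.42, 5.12 and 4.90 in methanol and 5.76, 5.57 and 5.90 with the compound (0.59 ± 0.16). Untreated cells read 5.62 and 5.35 for Elavl3. Cd14, a co-receptor for endotoxin, was 5.44, 5.41 and 5.61 in methanol and 5.07, 4.76 and 5.05 with the compound (-0.53 ± 0.16). Adgre1, another macrophage marker, went the other way, with a difference of 0.42. Of the 10 macrophage markers 6 had a mean above methanol and 4 below. The 10 myoblast markers lay at 9.75 to 9.85 in methanol and 9.76 to 9.80 with the compound.

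Compound 181, whose relation in structure to compound 178 the sources used here do not give, was compared with it at the 3 matched doses, all 6 arrays lying in the second run. One gene differed for the mean over doses (0.00451% of those tested), the cystine and glutamate antiporter gene Slc7a11. At 6.25, 12.5 and 25 µM it read 4.34, 4.15 and 4.64 with compound 178 and 5.12, 6.11 and 7.19 with compound 181, and in methanol 4.16, 4.56 and 4.64. Compound 178 thus stayed within or beside the methanol range at every dose, while compound 181 lay above it and climbed. The difference of compound 178 minus compound 181 was -1.76 ± 0.19 (95% interval -2.17 to -1.35, adjusted p = 0.0200, limma). The signals of methanol and compound 178 lay below the medians of their arrays (4.96 to 5.00), so no fold is given. Against methanol, compound 178 itself gave -0.08 (95% interval -0.49 to 0.34). Without the arrays of 6.25 µM the difference was -2.25 and the call held (adjusted p = 0.012). It was lost without the arrays of 12.5 µM (-1.66, adjusted p = 0.27) and without those of 25 µM (-1.36, adjusted p = 0.95). It was lost as well under quantile normalization (-1.75, adjusted p = 0.056) and with the 3 doses of a treatment pooled into 1 mean (-1.76, adjusted p = 0.43). In that pooled fit the steps between doses, the climb with compound 181 among them, count as spread. With the mean over both probe sets of the gene the difference was -1.11.

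A stretch before the annotated start of Slc7a11 is shown because it is the one gene that set the compounds apart and because this stretch holds a known type of stress element. It lies at chr3:50443634-50443693 of GRCm38.p6, minus strand, positions -80 to -21 from the start, and the sequence is from RefSeq. Capitals mark TGATGCAA and its reverse complement TTGCATCA, the letters of the CHOP and ATF4 composite motif, known as the amino acid response element.
Slc7a11: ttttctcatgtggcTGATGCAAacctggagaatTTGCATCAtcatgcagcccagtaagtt
The 2 matches start at positions -66 and -47. TGATGCAA was searched on both strands, and 0.895% of all 300-base promoter windows in the table held it. TGACNNNGC, the core of the antioxidant response element, was in 12.4% of them and was not in the window of Slc7a11. These letters are a description of the sequence, and no binding was measured.

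At the single doses 0 genes differed between the compounds in the limma fit, with 395, 548 and 1233 genes (the last 5.56%) at an unadjusted p under 0.05 for 6.25, 12.5 and 25 µM. The mean over doses had 1173 such genes (5.29%). The p-values were adjusted over all genes within each of these 4 comparisons. For Actg2 compound 178 lay above methanol and compound 181, at 9.50, 9.49 and 8.87, below it at each dose. Their difference was 0.58 ± 0.10 (95% interval 0.37 to 0.79, adjusted p = 0.30, limma). For Txnip it was -0.54 (95% interval -0.77 to -0.31), for Oaz1 -0.50 (95% interval -0.78 to -0.22) and for Ccn2 0.45 (95% interval 0.11 to 0.79), and none passed after adjustment. Sfrp2 stood 1.44 lower with compound 178 than with compound 181 at 25 µM, and Aldh3a1, an aldehyde dehydrogenase, 1.34 lower, again without passing (adjusted p = 0.77 and 0.53, limma).

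For the BMP readout the difference between the compounds had wide intervals. The spread of the fit takes in pairs of BMP4 arrays, and these disagreed. Id1 read 9.04 and 7.04 at 10 ng/ml, and Alpl 9.53 and 7.19 at 100 ng/ml, while the methanol SD was 0.089 and 0.27. The difference between the compounds was -0.28 (95% interval -1.12 to 0.56) for Id1, -0.36 (95% interval -0.96 to 0.25) for Id3 and 0.12 (95% interval -0.59 to 0.82) for Smad6. For Alpl it was -0.06 (95% interval -0.98 to 0.86), and for Myog 0.45 (95% interval -0.13 to 1.04). None of these intervals leaves out 0, and each leaves room for a difference of more than 0.5 in at least 1 direction. The missed threshold therefore does not show that the compounds act alike on these genes.

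**Figure D5:**
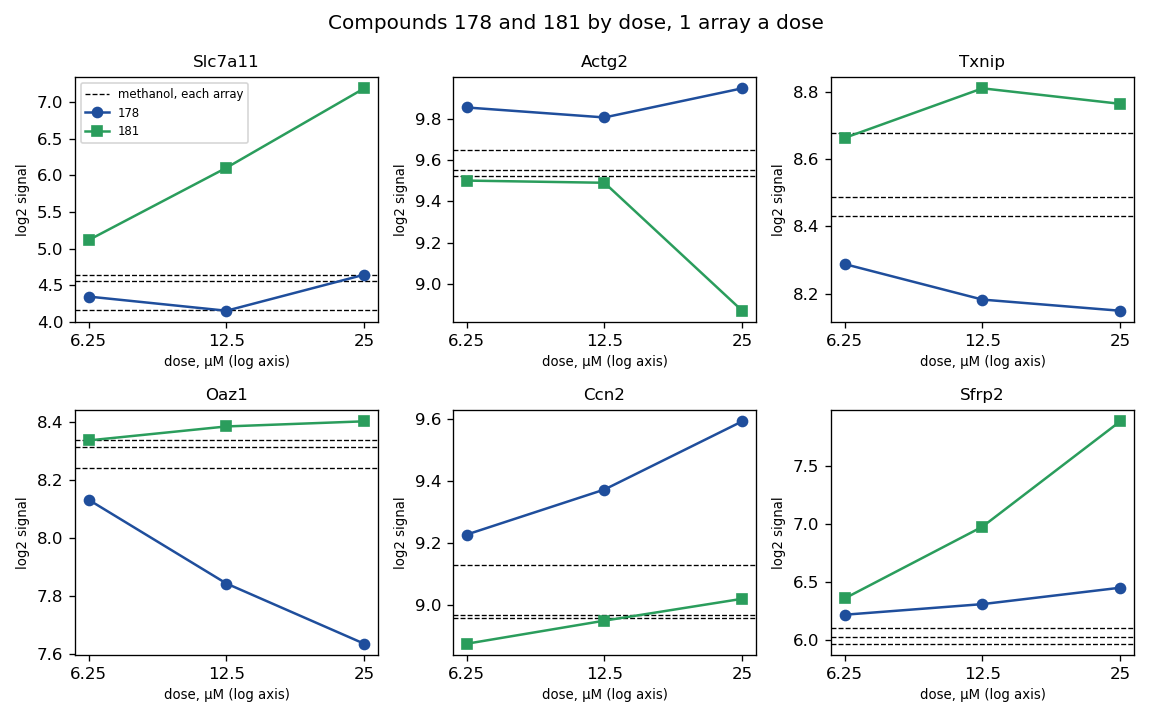
Log2 signal at each dose (log axis, µM) of compound 178 (circles) and compound 181 (squares), 1 array a dose, for 6 genes, with the 3 methanol arrays as dashed lines. Slc7a11 stays at 4.15 to 4.64 with compound 178 and reaches 7.19 with compound 181, while Oaz1 descends to 7.64 with compound 178 alone.

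The 64 genes that passed in the fit restricted to the second run are given as values of that fit only. They comprised 23 higher and 41 lower genes, with differences of 0.17 to 0.97 in size. Against all 3 methanol arrays 63 of the 64 had the same sign. That comparison adds only methanol replicate 1 to the arrays that chose the genes, so the sign was largely fixed by the choice. For 23 of them the compound's arrays lay apart from all 3 methanol arrays, and 7 were also ordered by dose. Over all genes 4.67% lay above, 4.92% below and 1.64% were ordered and apart. The counts for the 64 come from the arrays that chose them and carry no test. The group held some genes of small nucleolar, micro or other short structured RNAs, whose share among all genes tested was not counted. In Snora44, a small nucleolar RNA and the gene with the smallest p, methanol read 9.22, 9.37 and 9.29 while compound 178 read 8.81, 9.68 and 8.01, so that the doses fell on both sides of methanol. The range of the compound's 3 arrays had a median of 0.33 over the 64 genes, against 0.20 over all genes.

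Of the 24 dose-ordered genes, 5 were among these 64 (Ccn2, Zfp651, Sfrp2, Oaz1 and Txnip). Of the genes described above, Myog, Actg2, Hes1, Postn, Tfb2m, Elovl6, Vmn1r159, Elavl3, Chordc1, Gm7609 and Olfr211 were among the 64 too. BMP4 changed 15 of the 64 (adjusted p under 0.05, limma), 11 of them in the direction of compound 178, beside 8.81% of all genes changed and 1122 of those 1953 with the same sign. Sprr1a, a gene of the cornified envelope, was 9.57 and 9.62 in the methanol arrays of the run and 9.47, 9.33 and 9.04 with compound 178, and BMP4 gave -3.34. Nefl, the light neurofilament chain, was 9.28 and 9.29 in those methanol arrays and 9.09, 8.99 and 8.91 with the compound, and BMP4 gave -4.43. In both genes methanol replicate 1, at 9.33 and 8.74, lay within or below the range of the compound.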

How the data were processed

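Total RNA of C2C12 cells was hybridised to Affymetrix mouse gene arrays, 20 in all. The deposited values are log2 signals of probe sets. Per the submitters' processing notes, the authors made them with RMA in Partek 6.5, and whether they also corrected for batches was not stated in the sources used here. The table held 41345 probe sets. Of these, 23521 carried 1 symbol in the platform annotation, 1814 several and 16010 none. The brightest probe set stood for each of 22180 genes. All deposited columns were mapped to samples by title, and the values were used as they stood.

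Means of each treatment at each dose and a labelling term (4 arrays were labelled by another method, none of them methanol or compound 178) were estimated over all 20 arrays with limma 3.58.1 in R 4.3.3. Of those 4, only the array of BMP4 at 300 ng/ml has a partner of the same treatment and dose under the standard labelling. The labelling term takes up the difference of that pair, so the fitted value at 300 ng/ml is that of the second-run array. In that pair labelling and run cannot be told apart. The variances were moderated with a trend (5 residual and a median of 6.73 prior degrees of freedom). Each lone array of a compound dose takes its spread from the replicated groups. A call needs a p under 0.05 after Benjamini-Hochberg adjustment over all genes. Intervals are 95% and unadjusted, and ± is the SE of the fit. The number of arrays limits the precision, and p-values measure the spread between arrays, which may be technical since the labels name no separate cultures. The script was tested on simulated data.

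Genes were named by rule: the 12 largest differences each way among genes ordered over the doses, apart from methanol and reaching a log2 signal of 6, the 5 smallest p each way for the mean and for the slope, 9 readout genes, and up to 2 members of each of 35 lists. Slc7a11, the other probe sets, genes named as apart or as passing in 1 run, and genes beside the threshold were named after their values were seen. The members and lists were chosen with earlier results of these data known. Symbols are those of the annotation, and promoter sequence came from RefSeq tables of GRCm38.p6. The alternatives were other scalings, filters, probe set rules, model terms, controls and arrays left out, and 3 fits within the second run were added after seeing the data.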

Additional observations from a re-analysis of the deposited data

Results flagged for a closer look

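Slc7a11 differed between compounds 178 and 181 under the same contrast with methanol, by -1.76 on the log2 scale for the mean over 3 matched doses (adjusted p = 0.0200, limma). The compound 178 arrays were lower than those of compound 181 at 3 of 3 doses. A second probe set of the gene, at a mean log2 signal of 2.34, gave -0.15 for compound 178 against methanol.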

How the results depend on the processing

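For the mean of compound 178 against methanol the count of called genes was 0 in every alternative except the second run alone, where it was 64. In that fit the single doses gave 47, 104 and 94, the slope 63, compound 178 minus 181 gave 1239 for the mean and 51, 207 and 1668 for the doses. The spread there rests on 1 residual degree of freedom. Within the second run and added after seeing the data, a common mean for the doses gave 0 for compound 178 and 0 for its difference from compound 181, leaving out BMP4 as well gave 0 and 10, and the methanol and compound 178 arrays alone gave 0 (1456 at an unadjusted p under 0.05). The 1 gene called between the compounds became 0 with a common mean for the doses, 0 under quantile normalization and 0 to 1 with an array left out. BMP4 gave 2988 genes with the run as a further term.

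The ordered genes numbered 93 higher and 125 lower among brighter genes, 4 and 5 at a difference of 0.5 or more, and 316 to 393 higher and 339 to 431 lower with a methanol replicate left out. Leaving out an array of compound 178 was not run for these counts, since the order needs all 3 doses. Signs turned in 13 of 110 named genes, and 97 kept theirs in all alternatives run for them (at most 20). Against the methanol arrays of the second run the values were 0.013 for Alpl, -0.11 for Id2, -0.12 for Lpl, 0.097 for Mymx, -0.018 for Npm1 and 0.037 for Tm7sf2. With the run as a term they were 0.17 for Alpl, 0.080 for Id3, 0.069 for Smad7, 0.11 for Sp7, -0.017 for Npm1 and 0.036 for Tm7sf2. With untreated cells among the controls they were 0.048 for Alpl and 0.0071 for Slc7a11, and the mean over probe sets gave -0.0055 for Car9. With 1 array left out the values ran from -0.19 to 0.057 for Alpl, -0.11 to 0.11 for Id2, -0.12 to 0.31 for Lpl, -0.013 to 0.30 for Mt3, -0.30 to 0.097 for Mymx, -0.018 to 0.22 for Npm1, -0.22 to 0.038 for Slc7a11, -0.0079 to 0.19 for Smad6 and -0.25 to 0.037 for Tm7sf2. The cause was not tested. The labels give no replicate numbers to pair arrays by, and the run of title numbers was fitted as a further term instead.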
